A study of Homo sapiens with 63 samples.

Results

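Poly(A)+ RNA from fractions 18 to 22 of 2 polysome gradients was compared, with amino acid starved HEK293 cells on one side and serum starved HEK293 cells on the other. HEK293 is an established human embryonic kidney line. The fractions were chosen by number and label alone. They were 10 of the 63 samples of the series, 5 from each gradient. The amino acid starved cells had been kept for 1 h in Earle's salts (EBSS) supplemented with vitamins and serum. The serum starved cells had spent 2 h without serum but with amino acids. The fractions of cells in log phase, with serum and amino acids, are given beside them. All cells received cycloheximide, which holds ribosomes on mRNA, before lysis. Each starvation lacked what the other supplied, so a difference between them could come from either side, and their durations differed too.

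Translating mRNAs carry several ribosomes and sediment according to that load, and mRNAs with short coding sequences hold few ribosomes even when they are translated. Serum growth factors switch on immediate early genes and the ID and YAP target genes. Amino acid shortage activates the kinase GCN2, which lowers general initiation and raises translation of the transcription factor ATF4, whose targets include CHAC1 and TRIB3. Whether high numbers are the heavy or the light end is not stated in the labels, so fractions are given by number only.

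Each value is the authors' signal per gene and fraction, without spike-ins, rescaled so that the genes of a fraction sum to 1000000. This unit, signal per 1000000, is written SPM. The table held 11074 genes, of which 8574 with a mean of 5 SPM or more over the 10 fractions were compared and 2500 were not. This filter takes both conditions together, so a gene can pass it through the condition in which it is high. A difference is log2(SPM + 1) of the amino acid starved fraction minus that of the serum starved fraction of the same number, averaged over the 5 numbers. It understates the change of genes near 1 SPM. The SD beside a mean is the spread over the 5 fraction numbers of 1 gradient per condition, which are not replicates. No test or p-value was therefore possible, and with unknown library depth no counting error is attached. Genes are called higher or lower by a size rule. It asked for a mean difference of 1 (2-fold) or beyond, with the same sign at all 5 numbers.

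On the deposited scale the genes of a fraction summed to between 247998 and 11027592 without amino acids and between 179014 and 13109634 without serum. The fractions of the 2 gradients were close to each other. Same-numbered fractions correlated across genes at r = 0.958 to 0.985, and neighbouring fractions of 1 gradient at 0.964 to 0.985. Genes are not independent replicates, and the fractions share their lysate. The HEK293 markers NEFM, at 675 to 4590 SPM, and NEFL, at 412 to 868 SPM, were present in all of them. LIN28B, CDH2 and INA were lower, between 2.41 and 18.3 SPM. PAX2 and EYA1, and the markers of other cell types that were looked for (PTPRC, CD3E, ALB, COL1A1, COL3A1, KRT5, PECAM1), were not listed in the table.

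Few genes differed by much between the starvations. By the 2-fold rule 28 genes were higher without amino acids, which was 0.327% of those compared, and 16 were lower, which was 0.187%. At 1.5-fold 267 genes were higher (3.11%) and 256 lower (2.99%). The median difference over all compared genes was -0.02, with single-fraction medians between -0.15 in fraction 21 and 0.06 in fraction 20, and the central 95% of genes lay between -0.62 and 0.63. All 5 amino acid starved values stood above all 5 serum starved values for 22 of the 28 higher genes, beside 0.723% of all compared genes. They stood below for 10 of the 16 lower genes, beside 1.36% of all compared genes. The same values chose these genes, so this separation was largely set in advance and is no support for the calls. The split depended on the scale. On the deposited scale, without rescaling, the median gene was at -0.39, with 8 genes higher and 179 lower. Scaled to the ERCC spike-ins it was at -0.52, with 6 higher and 381 lower. The 44 genes kept their sign under both scales, and all differences below are read relative to the other genes of a fraction. Leaving out fraction 21 left 8 lower genes, 7 of them among the 16. Leaving out fraction 19 gave 26 lower genes.

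**Figure D1:**
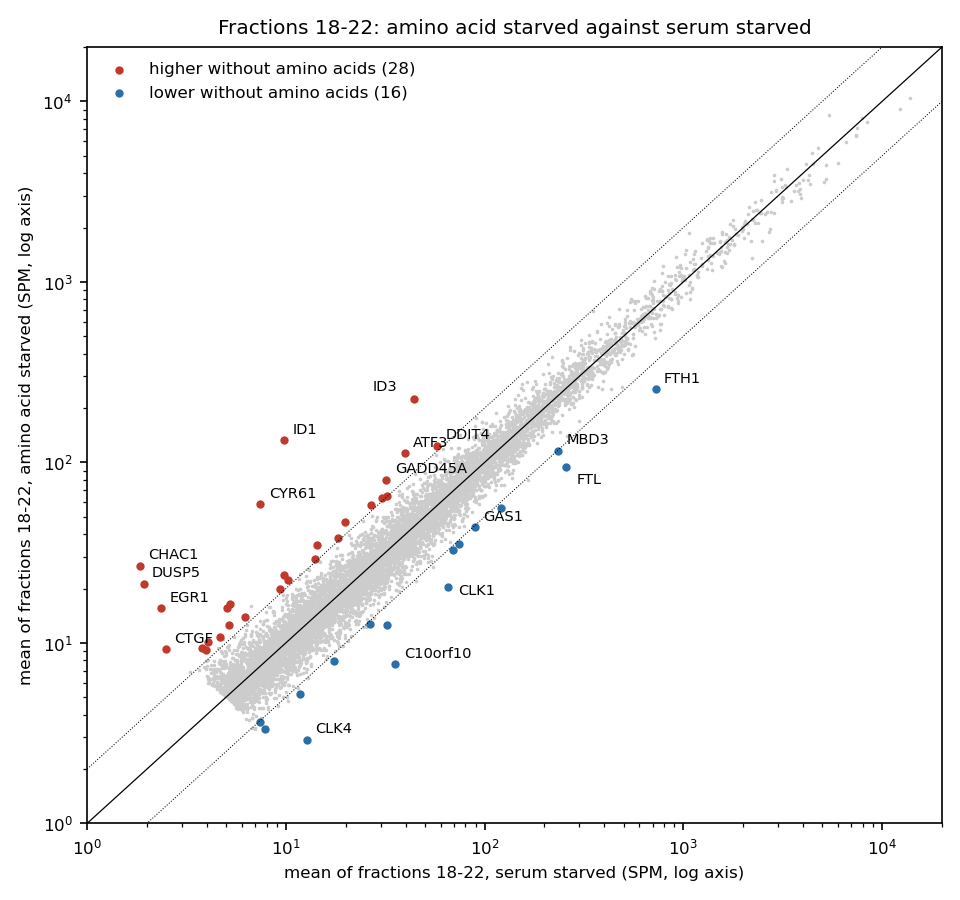
Mean signal (SPM) over fractions 18 to 22 in amino acid starved cells (vertical, log axis) against serum starved cells (horizontal, log axis), 1 point per compared gene. Red points are the 28 genes called higher without amino acids, blue points the 16 called lower; the solid line marks equal levels and the dotted lines a 2-fold difference. ID1, CHAC1, DUSP5, CYR61 and ID3 stand farthest above the line, and FTH1 and FTL are abundant genes below it.

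Several of the genes farthest above the line belong to the response to serum factors. ID1 (chr20:31605289-31606510 in GRCh38.p14) encodes an inhibitor of DNA binding that blocks basic helix-loop-helix factors and is a target of BMP and SMAD signalling. Its signal in fractions 18 to 22 was 172, 166, 128, 97.3 and 102 SPM in amino acid starved cells, against 15.9, 11.7, 8.52, 7.83 and 5.03 SPM in serum starved cells. The 2 sets were far apart, and within each the lower-numbered fractions were higher. The mean difference was 3.68 (SD 0.28 over 5 fractions), and log phase averaged 67.4 SPM, between the starved cells. ID3, a relative of ID1, had 359, 291, 178, 150 and 141 SPM without amino acids, against 77.6, 48.6, 35.6, 27.6 and 31.3 without serum. Its difference was 2.32 (SD 0.17) with no overlap, and the log phase mean of 173 SPM lay nearer to that of amino acid starved cells.

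CYR61 and CTGF encode matricellular proteins and are known targets of the coactivator YAP. CYR61 (CCN1 in RefSeq) had 50.9, 52.9, 60.7, 52.9 and 76.3 SPM in amino acid starved fractions, against 9.23, 6.56, 6.13, 6.89 and 8.43 SPM in serum starved fractions. The lowest of the one set exceeded the highest of the other several-fold, and the mean difference was 2.82 (SD 0.30). CTGF was less abundant, averaging 9.22 SPM without amino acids and 2.49 SPM without serum, a difference of 1.51 (SD 0.67). It alone among the 28 had a log phase mean, 11.4 SPM, above both. The list of ID, SMAD and YAP target genes had 10 compared members of 14 in the table. By the 2-fold rule 4 were higher and 0 lower, beside 0.327% and 0.187% of all compared genes. At 1.5-fold 6 were higher, beside 3.11% of all compared genes, AMOTL2 and ID2 being the others. The 10 lay above 0, from BMPR2 at 0.06 to ID1, with a median of 0.74, beside -0.02 over all genes. Over the 5 members left by a filter of 20 SPM the median was 2.32. ID1 and CYR61, averaging 9.79 and 7.45 SPM without serum, passed that filter only through the amino acid starved fractions. The rise of the median is therefore partly built in. CTGF passed the filter of 5 SPM in the same way. ID2, its most abundant member, was at 0.61 (SD 0.13).

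EGR1, an immediate early transcription factor switched on by serum response factor (SRF), had 4.45, 13.0, 18.2, 14.2 and 28.4 SPM without amino acids, against 2.53, 2.23, 3.20, 2.32 and 1.52 SPM without serum. The ranges did not overlap, but the gap was narrow in fraction 18 and wide in fraction 22. Its mean difference of 2.13 had the largest spread of the 28 genes (SD 1.03), from 0.63 to 3.54, and was 2.51 without fraction 18 and 1.78 without fraction 22. Log phase EGR1 averaged 2.17 SPM, close to serum starved cells at 2.36. The stretch of its promoter that follows is shown because it holds the binding boxes known for SRF, called CArG boxes and given in capitals. It is RefSeq GRCh38.p14 sequence, plus strand, chr5:138465359-138465420, at -120 to -59 from the start of the gene.
EGR1: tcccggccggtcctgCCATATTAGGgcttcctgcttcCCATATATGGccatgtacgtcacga
Of 35116 RefSeq promoter windows (250 bases before to 50 after a start), 1.29% held a CArG box on either strand. Windows were found for 25 of the 28 higher genes, and EGR1 was the only holder among them; of 15 lower genes with a window, TICRR held a box too. A match describes these letters and does not show a bound site.

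DUSP5, a nuclear phosphatase that inactivates ERK, averaged 21.3 SPM in amino acid starved cells and 1.93 SPM in serum starved cells. Its 5 values ran between 15.7 and 28 SPM without amino acids and between 1.39 and 2.53 SPM without serum, well apart, for a difference of 2.93 (SD 0.25). SPRY2, another feedback inhibitor of growth factor signalling, was named after its values were seen and was at 1.13 (SD 0.26). The AP-1 member FOSL2 was at 1.13 (SD 0.69) and the nuclear receptor NR4A1 at 1.06 (SD 0.50). In log phase, where serum was present, SPRY2 (4.26 SPM) and NR4A1 (3.21 SPM) averaged below both starved means. The log phase means of DUSP5 (4.17 SPM) and FOSL2 (8.07 SPM) lay between the starved means. FOSL2 values overlapped, and its difference was as low as 0.07 in 1 fraction. Of 22 compared immediate early genes (26 in the table), 5 were higher (DUSP5, EGR1, ATF3, FOSL2, NR4A1) and 0 lower by the 2-fold rule. Over all compared genes 0.327% were higher and 0.187% lower. DUSP5, EGR1, FOSL2 and NR4A1 averaged below 5 SPM without serum and passed the filter only through the amino acid starved fractions. At 1.5-fold 9 of the 22 were higher, with DUSP1, IER2, JUNB and KLF6 added, and 1 was lower. Over all compared genes 3.11% were higher and 2.99% lower at 1.5-fold. The lower one was MYC, the most abundant, which averaged 1363 SPM without amino acids and 2203 SPM without serum, a difference of -0.72 (SD 0.24). JUN was at 0.04 (SD 0.37). The median of the list was 0.33, and 0.07 over the 13 members left by a filter of 20 SPM.

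Genes of the amino acid response formed the second group. CHAC1 (chr15:40953471-40956512), a glutathione-degrading enzyme induced by ATF4, had 37.9, 38.4, 22.8, 16.4 and 18.3 SPM without amino acids, against 2.15, 1.57, 2.40, 1.28 and 1.80 SPM without serum. Its log phase mean was 1.41 SPM, so the amino acid starved fractions stood apart from both. The difference was 3.22 (SD 0.53), and 3.73 with a pseudocount of 0.1, since serum starved levels were near the pseudocount of 1. ATF3, a stress-induced transcription factor counted in both the immediate early and the ATF4 target list, had 93.7, 136, 152, 95.3 and 86.8 SPM without amino acids, against 42.3, 50.7, 42.7, 33.7 and 29.3 SPM without serum. No value overlapped, and the difference was 1.47 (SD 0.25). DDIT4, an inhibitor of mTORC1 induced by stress, had 97.2, 142, 151, 114 and 114 SPM without amino acids, against 49.3, 67.1, 73.5, 53.2 and 44.9 SPM without serum. Its difference was 1.10 (SD 0.14), and both starved gradients were above the log phase mean of 28.1 SPM.

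Promoter stretches of CHAC1 and ATF3 are shown because these were the higher genes whose windows held the C/EBP-ATF response element, the composite element that ATF4 is known to bind. It was searched as TGATGNAAN on both strands and is given in capitals. Both are RefSeq GRCh38.p14 plus strand sequence. CHAC1 is chr15:40953241-40953289, -230 to -182 from its start, with the element on the minus strand, and ATF3 is chr1:212565196-212565244, -211 to -163 from its start.
CHAC1: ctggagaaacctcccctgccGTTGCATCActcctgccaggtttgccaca
ATF3: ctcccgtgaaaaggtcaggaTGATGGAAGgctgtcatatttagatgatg
The element occurred in 3.61% of all promoter windows, in 2 of the 25 higher genes with a window and in 0 of the 15 lower genes with a window. DDIT4, STC2 and CEBPB had none in this window, which says nothing about the factor. A match here does not show a bound site either. The ATF3 stretch lies before the outermost start of a gene spanning chr1:212565407-212620777, and does not cover any start further in.

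Of 32 compared ATF4 target genes (34 in the table), 5 were higher by the 2-fold rule (CHAC1, ATF3, CEBPB, DDIT4, STC2) and 0 lower. Over all compared genes 0.327% were higher and 0.187% lower by that rule, and 3.11% were higher at 1.5-fold. CHAC1, averaging 1.84 SPM without serum and 26.8 SPM without amino acids, passed the filter of 5 SPM only through the amino acid starved fractions. CEBPB, a bZIP transcription factor, was at 1.20 (SD 0.28), and STC2, a secreted glycoprotein, at 1.08 (SD 0.18). TRIB3, a pseudokinase that restrains ATF4, PSPH, the last enzyme of serine synthesis, SESN2, a leucine sensor upstream of mTORC1, and HERPUD1 brought the count to 9 at 1.5-fold, with 0 lower. TRIB3 averaged 28.2 SPM without amino acids and 14.8 SPM without serum, a difference of 0.86 (SD 0.14). The median of the list was 0.33, with 24 members above 0, beside 47.4% of all compared genes. The lowest was KLHL24 at -0.43. Abundant biosynthetic targets were nearer 0, with asparagine synthetase ASNS at 0.28 (SD 0.12) and PHGDH, the entry enzyme of serine synthesis, at 0.14 (SD 0.25). The list median depended on which fractions were set against each other. Relative to all genes it was -0.05 when amino acid starved 18 to 21 faced serum starved 19 to 22, and 0.62 with amino acid starved 19 to 22 against serum starved 18 to 21.

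ATF4 itself, whose upstream open reading frames repress it in unstressed cells, had 878, 803, 653, 561 and 562 SPM without amino acids, against 444, 384, 327, 285 and 310 SPM without serum. The sets did not overlap, the difference of 0.97 (SD 0.07) was just short of 2-fold, and the log phase mean of 252 SPM was the lowest. DDIT3, which also carries an upstream open reading frame, was at 0.68 (SD 0.46) with mean levels of 7.14 SPM without amino acids and 3.95 SPM without serum. Among 16 compared uORF-regulated stress mRNAs (19 in the table), CEBPB was higher by the 2-fold rule, 3 were higher at 1.5-fold (CEBPB, ATF4, DDIT3) and 0 were lower, with a median of 0.21. ATF5 was at the low end, at -0.41. Amino acid transporters (19 compared) and cytosolic aminoacyl-tRNA synthetases (23) had 0 members past the 1.5-fold rule, with medians of -0.07 and 0.12. Beside 3.11% higher and 2.99% lower over all compared genes, a count of 0 in lists this small says little. SLC38A2 was at 0.36 (SD 0.27) and SLC7A5 at -0.44 (SD 0.45). The synthetase median relative to all genes was -0.30 and 0.63 in those staggered comparisons.

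**Figure D2:**
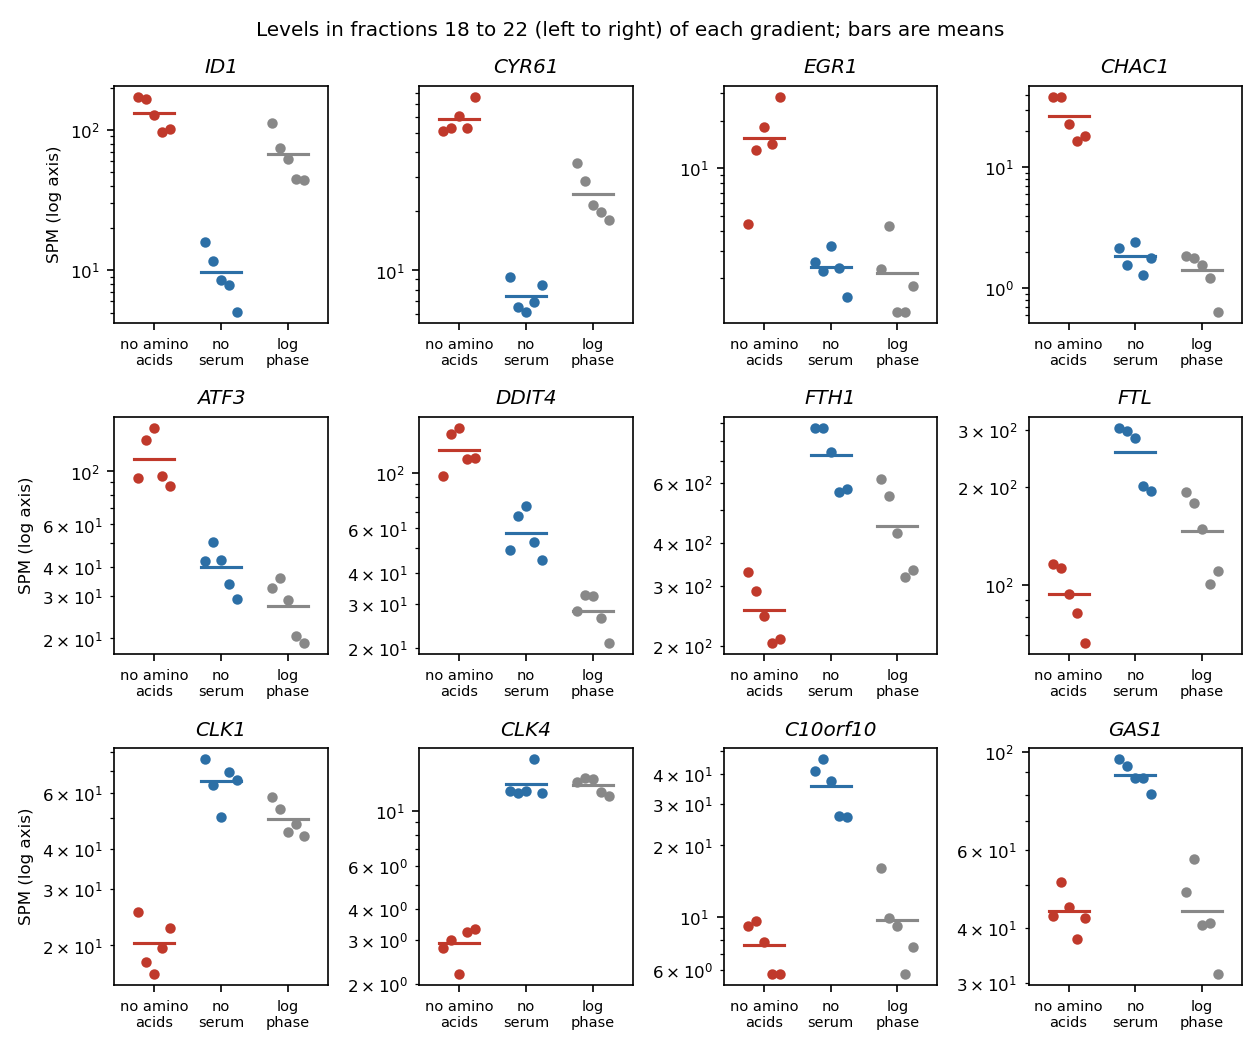
Signal in SPM (log axis, own scale per gene) of 12 genes in fractions 18 to 22, left to right within each cluster, of amino acid starved, serum starved and log phase cells; bars are the means of 5 fractions. For the 6 genes in the upper panels up to DDIT4 every amino acid starved value lies above every serum starved value, and for FTH1, FTL, CLK1, CLK4, C10orf10 and GAS1 every one lies below.

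The other higher genes came from several lists or from none. GADD45A, a p53- and stress-induced gene counted in the FOXO list, averaged 80.3 SPM without amino acids and 32.1 SPM without serum, a difference of 1.29 (SD 0.19). CDKN1A, the cyclin-dependent kinase inhibitor p21, averaged 38.0 SPM without amino acids and 18.4 SPM without serum, at 1.02 (SD 0.08), and its ranges overlapped slightly. NFKBIA, the inhibitor of NF-kappa-B, was at 1.17 (SD 0.32), and RGS2, a regulator of G protein signalling, at 1.04 (SD 0.31). The C2H2 zinc finger genes ZNF256 (1.41), ZNF121 (1.13), ZNF134 (1.06) and ZNF551 (1.01) were higher and ZNF616 (-1.09) lower, of 188 compared (381 in the table), while the median of that family was -0.07. By the 2-fold rule 0.327% of all compared genes were higher and 0.187% lower. At 1.5-fold 10 of the family were higher and 13 lower, beside 3.11% and 2.99% of all compared genes, so the family had members on both sides. ZNF551 averaged 4.64 SPM without serum and ZNF616 3.32 SPM without amino acids. Each passed the filter of 5 SPM only through the other condition. Members of this family are alike in sequence, and quantification can share reads among them. TMEM14B, a small membrane protein, was at 1.09 (SD 0.48). The remaining higher genes were named after their values were seen and ran from 1.01 to 1.23. They were PLK2, RHOU, SMIM8, FASTKD1 and PMAIP1.

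Relative to log phase the 28 higher genes were not all of 1 kind. Their log phase mean lay between the starved means in 14, below both in 13 and above both in 1. ID1, CYR61, ID3 and DUSP5 lay between, with amino acid starved minus log phase differences of 1.02, 1.25, 0.37 and 2.10, and serum starved minus log phase differences of -2.66, -1.57, -1.94 and -0.82. CHAC1, EGR1, ATF3, GADD45A and DDIT4 lay above log phase in both, with 3.47, 2.28, 2.01, 1.52 and 2.10 without amino acids and 0.25, 0.15, 0.54, 0.23 and 1.00 without serum. Both sets of differences share the log phase fractions. Over all compared genes the medians were 0.22 without amino acids and 0.22 without serum.

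Among the lower genes, FTH1, a ferritin subunit, was the most abundant, with a mean of 491 SPM over the 10 fractions. MBD3 and FTL, the other ferritin subunit, followed at 175 SPM each. Ferritin stores iron, and its mRNAs carry an iron-responsive element near the 5′ end, where iron regulatory proteins block initiation when iron is scarce. FTH1 (chr11:61964285-61967634), the heavy subunit, had 328, 290, 245, 203 and 210 SPM in amino acid starved cells, against 874, 874, 741, 566 and 575 SPM in serum starved cells. FTL (chr19:48965309-48966879), the light subunit, had 116, 113, 93.8, 81.9 and 66.2 SPM without amino acids, against 305, 298, 284, 201 and 194 SPM without serum. Neither gene overlapped, and in both gradients the values were lower towards fraction 22. The differences were -1.50 (SD 0.08) for FTH1 and -1.44 (SD 0.12) for FTL, among the narrowest spreads of all called genes. The log phase means, 450 SPM for FTH1 and 146 SPM for FTL, lay between the starved means. Both genes have processed pseudogenes, and reads may be shared with them.

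The loop of the iron-responsive element is shown for FTL, as the member whose RefSeq window covers it, with the letters CAGTGN in capitals. The stretch is GRCh38.p14, plus strand, chr19:48965329-48965358, bases 21 to 50 of the transcript.
FTL: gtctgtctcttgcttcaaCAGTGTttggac
Those 6 letters are short and were found on either strand of the 50 bases after the start in 12.0% of all windows, so they do not mark an element by themselves. They were found in 5 of 15 lower genes with a window, and in 2 of 25 higher genes. On the strand of the transcript alone they were found in 6.36% of all windows, in 4 of the 15 lower genes and in 1 of the 25 higher genes.

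Within the iron genes the ferritins were the calls. Of 17 compared, FTH1 and FTL were lower and 0 were higher by the 2-fold rule, beside 0.187% and 0.327% of all compared genes. At 1.5-fold SLC25A28 was also lower and TFRC higher, beside 2.99% and 3.11% of all compared genes. TFRC, the transferrin receptor, whose mRNA carries such elements in its 3′ end that protect it when iron is scarce, averaged 34.7 SPM without amino acids and 22.9 SPM without serum. Its difference was 0.61 (SD 0.31), opposite in sign to ferritin, but its ranges overlapped. The median of the list was -0.12, and its most abundant member PCBP2, an RNA-binding protein and iron chaperone, was at -0.40 (SD 0.35).

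Kinases of the CLK family, which phosphorylate SR splicing factors, were lower together. CLK1 had 25.5, 17.8, 16.3, 19.6 and 22.7 SPM without amino acids, against 76.4, 63.5, 50.5, 69.4 and 65.7 SPM without serum, with no overlap and a difference of -1.63 (SD 0.13). CLK4 had 2.79, 3.00, 2.19, 3.25 and 3.33 SPM without amino acids, against 12.0, 11.8, 12.0, 16.2 and 11.8 SPM without serum. Its difference was -1.81 (SD 0.21), and the log phase mean of 12.7 SPM was close to that of serum starved cells. CLK3 was at -1.06 (SD 0.33), with ranges that touched. Of the 20 compared SR factors and CLK kinases these 3 were lower and 0 higher, beside 0.187% and 0.327% of all compared genes. CLK4, averaging 2.91 SPM without amino acids, passed the filter of 5 SPM only through the serum starved fractions. At 1.5-fold SRSF4 and CLK2 were lower too, beside 2.99% of all compared genes, so that all 4 CLK genes passed. The SR factors had no such common direction, with the most abundant, SRSF3, at 0.23 (SD 0.19) and SRSF7 at 0.41 (SD 0.12). The median of the list was -0.20.

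C10orf10 (DEPP1 in RefSeq), a gene known as a FOXO target induced when growth factors are withdrawn, had the lowest difference of all. It had 9.21, 9.62, 7.82, 5.78 and 5.77 SPM without amino acids, against 41.1, 46.4, 37.5, 26.7 and 26.3 SPM without serum. The difference was -2.07 (SD 0.06), with single fractions between -2.16 and -2.01, and log phase averaged 9.68 SPM, near the amino acid starved cells. GAS1, a gene named for its expression in growth arrest, averaged 43.7 SPM without amino acids and 89.0 SPM without serum, with no overlap, at -1.02 (SD 0.15). Its log phase mean of 43.7 SPM matched that of amino acid starved cells. The 11 compared genes of the FOXO list (18 in the table) did not share the direction of C10orf10, with IRS2 lowest at -0.56, GADD45A higher by the rule, and a median of 0.13.

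The other lower genes were in none of the gene lists. MBD3, a subunit of the NuRD complex, averaged 116 SPM without amino acids and 235 SPM without serum, at -1.04 (SD 0.29) with no overlap. MEPCE, the capping enzyme of 7SK RNA, was at -1.10 (SD 0.27), TICRR, a replication initiation factor, at -1.23 (SD 0.40), and C15orf39 at -1.04 (SD 0.20), all with overlapping ranges. TICRR and MEPCE were higher in fraction 22 than in fraction 18 in both gradients. The rest of the lower genes, MNT, ZZZ3, CDC42EP2 and ISY1-RAB43, were named after their values were seen and lay between -1.07 and -1.01. ISY1-RAB43 is a readthrough gene that shares exons with its neighbour, so its value is uncertain. Of the 16 lower genes, the log phase mean lay between the starved means in 14 and above both in 2.

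Several calls close to the 2-fold limit did not pass with 1 fraction number left out, while CDKN1A, ZNF134, STC2 and DDIT4, also close to it, passed in each case. Without fraction 21, GAS1, CLK3, MBD3, MEPCE, C15orf39, CDC42EP2, ZZZ3, MNT and ISY1-RAB43 no longer passed, at -0.99 to -0.63, nor did RGS2, TMEM14B, SMIM8 and FASTKD1, at 0.87 to 0.92. Without fraction 18, FOSL2 (0.97), ZNF121 (0.99) and GAS1 (-0.98) did not pass, and without fraction 19, FOSL2 (1.00) and ZNF616 (-0.93) did not. Without fraction 20, PMAIP1 (0.95), ZNF551 (0.95), FASTKD1 (0.97) and MBD3 (-0.96) did not. Without fraction 22, NR4A1 (0.85), ZNF551 (0.87), FASTKD1 (0.88), PMAIP1 (1.00), CLK3 (-0.98) and ISY1-RAB43 did not. The other 19 higher and 6 lower genes passed with each fraction number left out. ID1, CHAC1, DUSP5, CYR61, ID3, EGR1, C10orf10, CLK4, CLK1, FTH1 and FTL passed in every setting in which they were compared, the deposited and spike-in scales included.

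Messages with very short coding sequences were slightly higher without amino acids as a group. The list holds small subunits and factors such as COX6C, a subunit of cytochrome oxidase, SEC61G, a subunit of the protein-conducting channel, and the thymosins TMSB4X and TMSB10, which bind actin monomers. Of 58 compared members, 57 had a difference above 0, beside 47.4% of all compared genes. By the 2-fold rule 0 were higher or lower, but 18 were higher and 0 lower at 1.5-fold, beside 3.11% and 2.99% of all compared genes. The median was 0.55. By fraction number the median was 0.36, 0.35, 0.60, 0.89 and 0.36 from 18 to 22. TMSB4X, the highest, had 237, 182, 168, 187 and 105 SPM without amino acids, against 141, 109, 71.3, 70.1 and 60.9 SPM without serum. Its ranges overlapped, since levels were lower towards fraction 22 in both gradients, and its difference was 0.98 (SD 0.31). COX6C averaged 383 SPM without amino acids and 217 SPM without serum, at 0.85 (SD 0.40). MIF, a cytokine and the most abundant member, was at 0.28 (SD 0.26), and COX19 was alone below 0 at -0.12 (SD 0.14).

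RPL41, the shortest ribosomal protein and the highest of its list, was at 0.80 (SD 0.34) and RPS29, the highest of the small subunit list, at 0.65 (SD 0.33), while the medians of large and small ribosomal subunit proteins were 0.01 and 0.08, of 47 and 32 compared. RPL3 and RPSA were lowest, at -0.50 and -0.52. The 75 nuclear-encoded respiratory chain subunits had a median of 0.26, with 67 above 0, beside 47.4% of all compared genes. At 1.5-fold 10 of them were higher and 0 lower, beside 3.11% and 2.99% of all compared genes. COX6C was highest and NDUFV1, a core subunit of complex I, lowest at -0.17 (SD 0.49), and 8 of the 10 are also members of the list of very short coding sequences. The 78 mitochondrial ribosomal proteins had a median of 0.14. The 23 very long coding sequences had a median of -0.15, from -0.76 in fraction 21 to 0.28 in fraction 20, with DYNC1H1 lowest at -0.64. Relative to all genes, the median of very short coding sequences stayed above 0 in every setting, at 0.57 on the deposited scale, 0.54 scaled to spike-ins and 0.42 without fraction 21. It was 0.98 with amino acid starved 18 to 21 against serum starved 19 to 22, and 0.24 with the opposite stagger. That of very long coding sequences took both signs, at -0.52 and 0.29 in the same comparisons.

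The lists with the lowest medians held lipid synthesis, translation and lysosomal genes. The 30 compared cholesterol and fatty acid synthesis genes had a median of -0.31, with 26 below 0, beside 52.6% of all genes. At 1.5-fold 6 of the list were lower, among them the desaturase FADS2 at -0.84 (SD 0.37), beside 2.99% of all compared genes. FDPS, its most abundant member, was at 0.12 (SD 0.10). The 35 lysosomal genes had a median of -0.21, with 28 below 0 and NAGLU, a heparan sulfate hydrolase, lowest at -0.71 (SD 0.22). The 26 other TOP mRNAs, which carry a 5′ terminal oligopyrimidine tract and depend on mTORC1, had a median of -0.26, with 22 below 0. PABPC1, the poly(A)-binding protein, averaged 255 SPM without amino acids and 433 SPM without serum, and 781 SPM in log phase. Its difference was -0.77 (SD 0.27). EEF1A1, the elongation factor, was at -0.39 (SD 0.24), with means of 10385 SPM without amino acids, 13794 SPM without serum and 32583 SPM in log phase. In none of these 3 lists was a gene past the 2-fold rule, beside 0.327% higher and 0.187% lower over all compared genes.

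Lists without a member past the 1.5-fold rule included proteasome subunits (median 0.04, 0 of 33 past 1.5-fold), DNA replication genes (0.02, 0 of 41) and glycolysis enzymes (-0.09, 0 of 17). Heat shock chaperones (0.06, 0 of 25), the TRiC/CCT chaperonin (0.14, 0 of 8), mitotic genes (median just below 0, 0 of 30) and RNA exosome subunits (0.15, 0 of 12) also had none. Over all compared genes 3.11% were higher and 2.99% lower at 1.5-fold, so counts of 0 in lists this small say little. Among 12 polyamine genes AMD1, which makes the aminopropyl donor, was lower at 1.5-fold, at -0.61 (SD 0.29). Replication-dependent histones had only 6 compared members of 19 in the table. Of these, 3 were higher at 1.5-fold, beside 3.11% of all compared genes, with HIST1H1C at 0.98 (SD 0.36). The libraries were made from poly(A)+ RNA, so these values cover only histone mRNAs with a poly(A) tail. HIST2H4A, at -0.28, and HIST2H4B, higher at 1.5-fold, encode the same protein, so their split values are uncertain. The histone median of 0.33 was at -0.01 relative to all genes with amino acid starved 19 to 22 against serum starved 18 to 21.

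**Figure D3:**
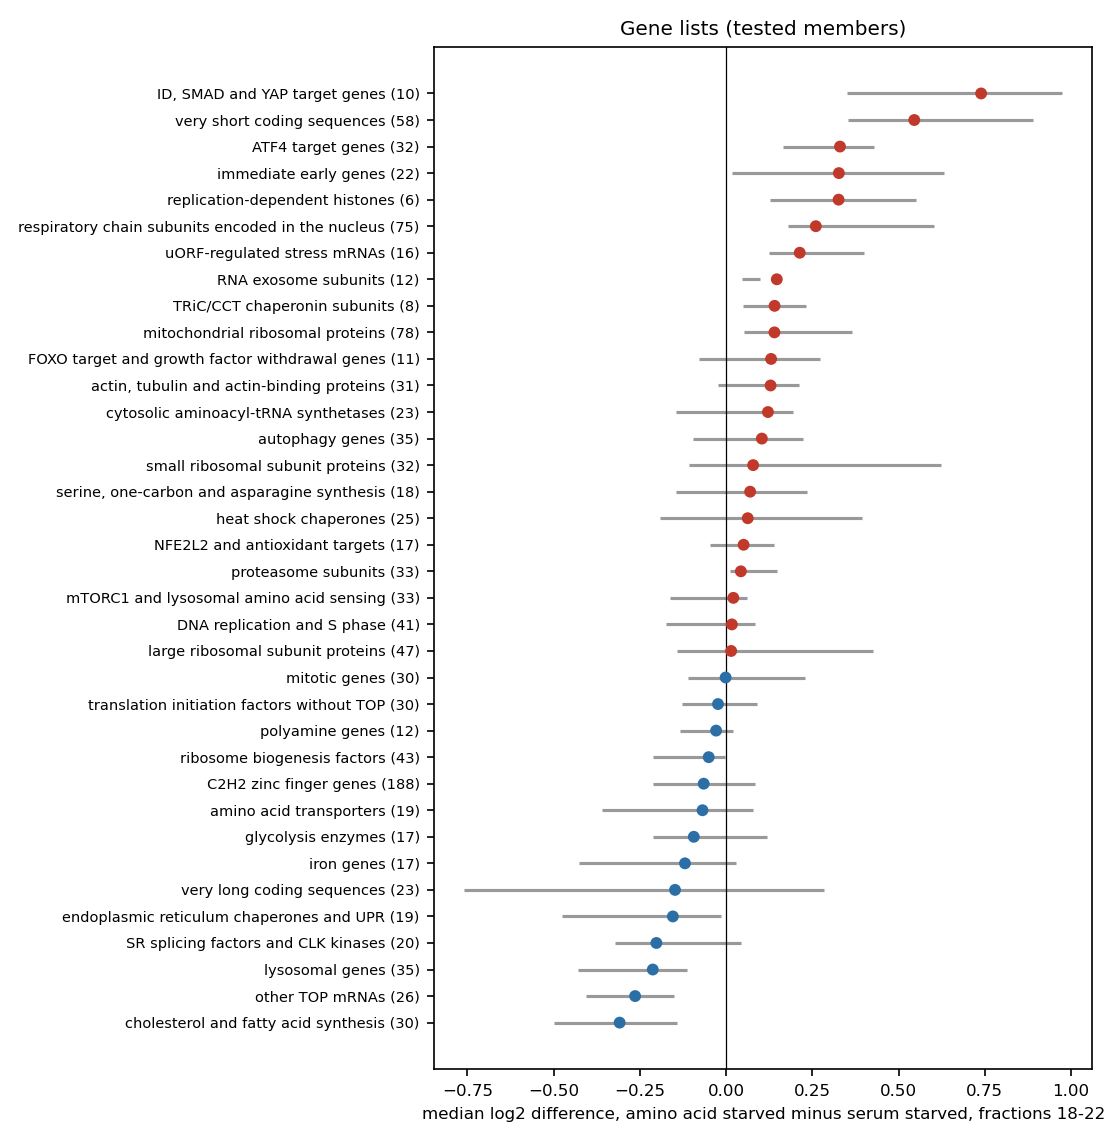
Median log2 difference (amino acid starved minus serum starved) in fractions 18 to 22 for each gene list, with the number of compared members in brackets. Points are medians of the 5-fraction means and grey bars run from the lowest to the highest single-fraction median, which need not enclose the point. ID, SMAD and YAP target genes (0.74) and very short coding sequences (0.55) stand highest and cholesterol and fatty acid synthesis (-0.31) lowest. The median of all genes is -0.02 here, and -0.39 and -0.52 on the deposited and spike-in scales.

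The same 2 gradients were then compared in their other fractions, with the same genes and rule. In fractions 13 to 17, 43 genes were higher (0.502%) and 2 lower (0.0233%). In fractions 8 to 12, 5 were higher (0.0583%) and 114 lower (1.33%). In fractions 3 to 7, 6 were higher (0.07%) and 1 lower (0.0117%). The medians over all genes were 0.20, -0.35 and 0.01 in these blocks. Of the 28 genes higher in fractions 18 to 22, 13 were also higher in 13 to 17, 5 in 8 to 12 and 5 in 3 to 7, and their medians were 0.94, 0.28 and 0.59, beside 1.15 in 18 to 22. Of the 16 lower genes, 2, 6 and 1 were lower there, with medians of -0.45, -0.83 and -0.14, beside -1.08. No difference between blocks was tested.

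ID1, CHAC1, CYR61 and ID3 were higher without amino acids along the whole gradient. ID1 was at 2.96 in fractions 3 to 7, 2.33 in 8 to 12 and 3.47 in 13 to 17, and CHAC1 at 2.11, 2.09 and 3.23. C10orf10 was lower throughout, at -1.62, -2.30 and -2.30. EGR1 was not alike along the gradient, at 0.28, -0.85 and 1.53. The ferritins followed the fraction number, with FTH1 at 0.43, -0.07 and -0.66 and FTL at 0.10, -0.15 and -0.70. CLK1 was at 0.06, -0.90 and -0.85. The very short coding sequences had medians of 0.01, -0.06 and -0.02 in the 3 other blocks, beside 0.55 in fractions 18 to 22. Over all compared genes the medians were 0.01, -0.35 and 0.20 in those blocks. Relative to the other genes the list was therefore also higher in fractions 8 to 12, as in fraction 11, at 0.04 beside -0.63. RPL41 was at 0.14, -0.02 and -0.03 in the 3 other blocks, and TMEM14B at 0.21, -0.05 and 0.19.

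**Figure D4:**
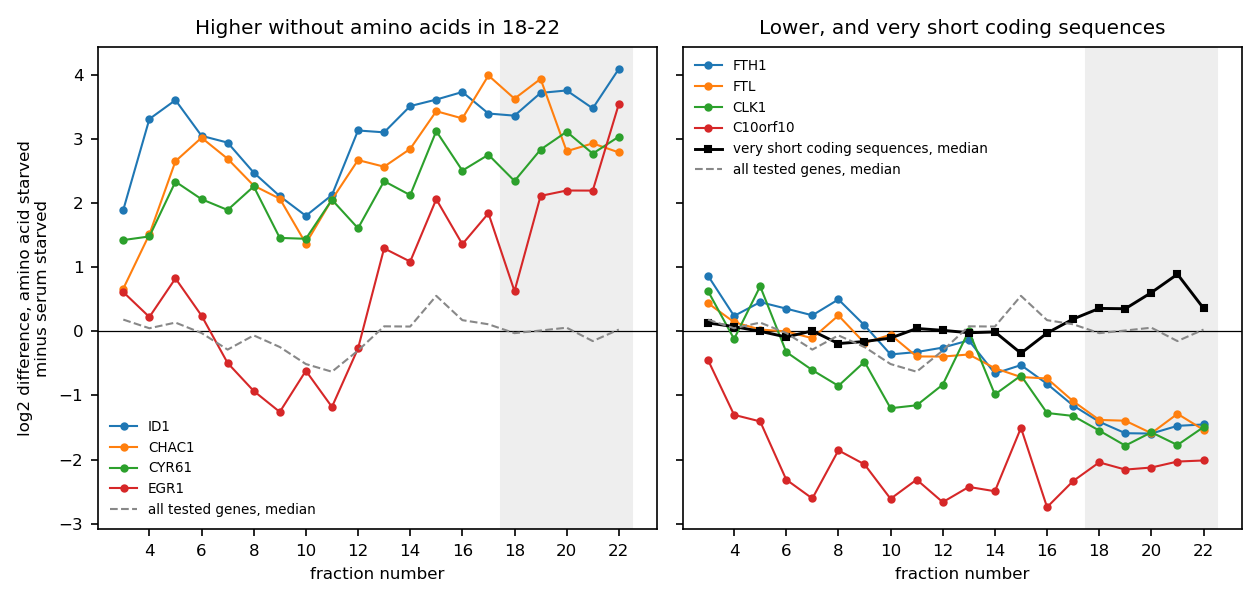
Log2 difference (amino acid starved minus serum starved) at each fraction number from 3 to 22, for genes higher in fractions 18 to 22 (left) and for lower genes and the median of the very short coding sequences (right); the grey band marks fractions 18 to 22 and the dashed line is the median of all compared genes. ID1 and CHAC1 stay above 0 and C10orf10 below 0 at every number, and FTH1 and FTL come down with the fraction number. The median of the short coding sequences lies between -0.34 and 0.19 up to fraction 17 and between 0.35 and 0.89 in the band. It also lies above the dashed line in other fractions, as in fraction 11, at 0.04 beside -0.63.

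The share of a gene's own signal found in fractions 18 to 22 was computed with each fraction given an equal total and again on the deposited scale. With equal totals it was higher without amino acids for 24 of the 28 higher genes and lower for 15 of the 16 lower genes. The signal in this block also chose these genes, so these directions were largely set in advance and are no support for the calls. They were not counted over all compared genes. For FTH1 the share was 2.51% in amino acid starved cells and 8.39% in serum starved cells, with 2.06% in log phase. For FTL it was 1.85% without amino acids and 5.34% without serum, with 1.18% in log phase. For EGR1 it was 54.1% without amino acids and 22.7% without serum, with 23.8% in log phase. For ID1, whose level differed along the whole gradient, it was 45.2% without amino acids and 41.3% without serum. For TMEM14B it was 10.3% without amino acids and 5.57% without serum, and for PMAIP1 21.9% without amino acids and 16.6% without serum. On the deposited scale, where fractions 18 to 22 held 14.6% of all gene signal without amino acids, 22.4% without serum and 43.8% in log phase, the share of FTH1 was 5.11% without amino acids and 19.3% without serum, with 34.7% in log phase. The order of log phase against the starved gradients therefore depended on the scale, while amino acid starved FTH1 was below serum starved FTH1 on both. EGR1 was at 33.0% without amino acids and 19.8% without serum on the deposited scale, in the same direction. Most of the higher genes were not. On the deposited scale the share was higher without amino acids for 6 of the 28 and lower for 22, while all 16 lower genes had the lower share without amino acids. ID1 was at 36.1% without amino acids and 42.8% without serum and PMAIP1 at 13.9% without amino acids and 17.1% without serum, both turned round. TMEM14B was nearly level, at 4.96% without amino acids and 4.90% without serum. Within the block alone, the amount of an mRNA in the cell and its place in the gradient cannot be told apart, and the lysates were not analysed here.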

How the data were processed

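Libraries were made with a stranded mRNA kit from poly(A)+ RNA of gradient fractions, per the labels' protocols. RNAs lacking a poly(A) tail were therefore not covered. The submitters' processing notes name kallisto 0.44.0, sleuth 0.29.0 and hg38. The signal deposited by the authors is called TPM by the table's name, but the columns sum to different totals. Each fraction thus carries a further scale whose origin is unknown, and the filter behind the table's gene set is unknown too.

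The spike-ins (29 ERCC and 1 luciferase) were dropped and each column was rescaled to 1000000 (SPM). Differences used log2 with a pseudocount of 1, and genes needed a mean of 5 SPM. With 1 gradient per condition no test was run. Alternatives were the deposited scale, spike-in scaling, median centring, other pseudocounts, filters and size rules, ratios of means, medians, staggered fraction numbers and leaving out each fraction number. Computation used Python 3.11.15, pandas 2.3.3 and numpy 2.4.6.

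The genes named are the 12 highest and 12 lowest among those meeting the size rule with a mean of 20 SPM or more, the most abundant, highest, lowest and called members of each of 36 gene lists with 5 or more compared members, and a fixed set of genes. List members counted at 1.5-fold are named in addition, after their values were seen. The comparison, the lists and several of these genes were chosen with earlier results of these data known. Symbols were matched to the RefSeq GRCh38.p14 table for 8549 of the 8574 compared genes, and coordinates come from it. A comparison by binned protein length was planned and not run, since no protein table was used here. One further marker of HEK293 cells is not reported here.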

Additional observations from a re-analysis of the deposited data

Results flagged for a closer look

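FTH1 ran opposite ways in the 2 ends of the gradients, and this difference between blocks was not tested. In fractions 18 to 22 it was lower without amino acids at every fraction number, at -1.50 on average. In fractions 3 to 7 it was higher at every number, at 0.43 on average (0.24 to 0.87), with mean levels of 9095 SPM without amino acids and 6885 SPM without serum.

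EGR1 was higher without amino acids at every number of fractions 18 to 22, at 2.13 on average, and lower at every number of fractions 8 to 12, at -0.85 on average (-1.26 to -0.27). This difference was not tested either. Its levels in fractions 8 to 12 were low, averaging 1.44 SPM without amino acids and 3.37 SPM without serum.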

How the results depend on the processing

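No gene that met the size rule turned its sign under any alternative, but the counts moved. Against 28 higher and 16 lower genes, the counts were 8 and 179 on the deposited scale (median of all genes -0.39), 6 and 381 scaled to the ERCC spike-ins (median -0.52), and 29 and 14 after median centring. The deposited and spike-in scales do not hold the total of a fraction fixed, and the cause of the shift of all genes under them was not tested. A pseudocount of 0.1 gave 37 and 30, and one of 5 gave 12 and 8. A filter of 20 SPM gave 13 and 10, and no filter 40 and 20, as fewer or more genes were compared. The 1.5-fold rule gave 267 and 256, and asking for ranges without overlap gave 22 and 10. Amino acid starved 18 to 21 against serum starved 19 to 22 gave 121 and 293 (median -0.11), and the opposite stagger gave 144 and 20. The cause was not tested. With a fraction number left out, the counts ran from 27 to 39 higher and from 8 to 26 lower, and the median of all genes from -0.04 to 0.02. Relative to the median of all genes, 17 of the 36 list medians took both signs across the staggered and the same-numbered comparisons. They were those of ATF4 targets, aminoacyl-tRNA synthetases, serine and one-carbon synthesis, mTORC1 sensing, polyamine genes, initiation factors without TOP, ribosome biogenesis, heat shock chaperones, the TRiC/CCT chaperonin, mitotic and S phase genes, glycolysis enzymes, the large, small and mitochondrial ribosomal proteins, histones and very long coding sequences. Initiation factors without TOP were above 0 in both staggered comparisons, at 0.01 and 0.09, and just below 0 in the same-numbered one. No paired analysis was possible because there was 1 gradient per condition. Depth is unknown, so the precision of low values such as serum starved CHAC1 cannot be given.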

Other observations

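Within the machinery of amino acid sensing, single genes stood apart while the list of 33 mTORC1 and lysosomal sensing genes had a median of 0.02. SESN2 and RRAGD, a RAG GTPase, were higher at 1.5-fold, and RPTOR, the scaffold of mTORC1, was lower. Over all compared genes 3.11% were higher and 2.99% lower at that size. RPTOR averaged 9.15 SPM without amino acids and 15.6 SPM without serum, a difference of -0.73 (SD 0.46 over 5 fractions). Among 35 autophagy genes ATG12, a ubiquitin-like conjugation protein, was at 0.60 (SD 0.37) and ATG16L1, the partner of its conjugate, at -0.67 (SD 0.32), while GABARAP, the most abundant, was at 0.25 (SD 0.13). BECN1 was at 0.46 (SD 0.25) and the cargo receptor SQSTM1 at -0.29 (SD 0.37).

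EIF4E, the cap-binding factor, averaged 36.0 SPM without amino acids and 24.0 SPM without serum, at 0.63 (SD 0.30). It was 1 of 2 among 30 initiation factors without a TOP tract to be higher at 1.5-fold, beside 3.11% of all compared genes. The endoplasmic reticulum chaperones had a median of -0.15, with 15 of 19 below 0, and HSPA5 at -0.23 (SD 0.16). The beta-tubulin TUBB2A was highest of 31 actin, tubulin and actin-binding genes, with a mean of 110 SPM without amino acids and 57.2 SPM without serum, at 0.96 (SD 0.35). TXN, thioredoxin, was the only one of 17 antioxidant genes past 1.5-fold, at 0.65 (SD 0.38).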
